A study of Mus musculus with 4 samples.

Results

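The 10 genes described here, *Csf1r*, *Cx3cr1*, *Ptprc*, *Spi1*, *Mrc1*, *Aif1*, *Lyz2*, *Cd68*, *Fcer1g* and *Tyrobp*, are genes of embryonic macrophages. They were taken by gene name from the array annotation, which holds 37074 gene names on 56605 probes, and 21 of these probes belong to the 10 genes. RNA of whole C57BL/6 mouse embryos was hybridized to 4 one-colour Agilent arrays of 1 slide, 1 array for each of WT at E8.5, *Dyrk2*-/- at E8.5, WT at E10.5 and *Dyrk2*-/- at E10.5 (E, embryonic day). The mutant mice carry small deletions in *Dyrk2* made with the CRISPR/Cas9 nickase, several deletion lines exist, and the labels do not say which one was used. How many embryos gave each RNA is not stated in the sources used here. With 1 array per group, no difference between genotypes at a stage has a replicate check, and no p-value is given for one.

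Macrophages are the first white blood cells of the mouse embryo. They arise from progenitors in the yolk sac, enter the embryo with the circulation and settle in the brain, liver, skin and other organs, where they clear dying cells. Their survival depends on the receptor Csf1r, their identity on the transcription factor PU.1, which *Spi1* encodes, and many of their surface receptors signal through small adaptors that carry an immunoreceptor tyrosine-based activation motif (ITAM).

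*Dyrk2*, the targeted kinase gene, was read first. Its brightest probe measured 0.06 (log2 intensity minus the 75th percentile of the array, the scale of all levels below) in WT and 0.76 under the *Dyrk2*-/- label at E8.5, and at E10.5 −0.31 in WT and 0.34 under that label. The signal was thus 1.62-fold higher at E8.5 and 1.57-fold higher at E10.5 on the arrays labelled *Dyrk2*-/-. A second probe was 1.02-fold and 1.21-fold higher. The adjusted p of the brightest probe for genotype over both stages was 0.24 in limma, and with spike-in scaling its log2 ratio became 0.15 at E8.5 and 0.81 at E10.5. This goes against the label if the allele lowers its own RNA. A small deletion need not lower the transcript, and whether a probe lies within the deleted bases is not known here, so *Dyrk2* does not check the labels and every direction between genotypes below rests on them.

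A probe was read as present on an array where the scanner software marked it well above background, and is called below background where it was not so marked. By the brightest probe of each gene, 5 of the 10 macrophage genes were well above background on the WT E8.5 array and 5 on the E8.5 array labelled *Dyrk2*-/-, against 9 on each E10.5 array. *Csf1r*, *Ptprc*, *Mrc1*, *Cd68* and *Fcer1g* were present on all 4 arrays, and *Cx3cr1*, *Aif1*, *Lyz2* and *Tyrobp* on the E10.5 arrays alone. The lowest value well above background was −4.82 on the WT and −4.53 on the *Dyrk2*-/--labelled array at E8.5, then −4.72 and −4.77 at E10.5. Where a gene was present on 1 array of a pair, its fold was taken against the higher of its own dim value and that lowest value and is written as at least so many fold.

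Among the surface receptors, *Csf1r*, the receptor for the growth factors Csf1 and Il34, measured −1.05 on the WT and −1.06 on the *Dyrk2*-/--labelled array at E8.5, then 0.66 and 0.18 at E10.5. Both E10.5 arrays were high and both E8.5 arrays low, 3.27-fold apart in WT and 2.36-fold apart on the arrays labelled *Dyrk2*-/-. At E10.5 the signal under the *Dyrk2*-/- label was 1.39-fold lower. A second *Csf1r* probe did not follow the brightest one, with −1.02, −0.89, −0.95 and −0.96 in the same order of arrays.

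*Cx3cr1*, the receptor for the chemokine fractalkine, measured −6.91 and −6.60 at E8.5, both below background, and −0.03 and −0.28 at E10.5 (WT and then the array labelled *Dyrk2*-/- in each pair, as in what follows). It was at least 27.6-fold higher at E10.5 in WT and at least 18.9-fold higher between the *Dyrk2*-/--labelled arrays. Its second probe was also present at E10.5 alone.

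*Mrc1*, the mannose receptor of scavenging macrophages, measured −2.38 and −2.85 at E8.5, then −1.38 and −1.83 at E10.5. Its level was 1.99-fold higher at E10.5 in WT and 2.02-fold higher between the *Dyrk2*-/--labelled arrays. The *Dyrk2*-/--labelled array was the lower one at both stages, 1.39-fold at E8.5 and 1.37-fold at E10.5.

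*Ptprc* encodes CD45, the phosphatase on the surface of all white blood cells, and its 7 probes disagreed. The brightest probe, designed on an Ensembl transcript (mm9 chr1:140020575-140020634), measured 1.91 and 2.09 at E8.5, then 1.76 and 1.85 at E10.5, and so was nearly level over the 4 arrays. A probe on the RefSeq transcript (mm9 chr1:139960089-139960148) measured −7.13 and −6.82 at E8.5, below background, and −2.98 and −3.25 at E10.5. This probe was at least 3.58-fold higher at E10.5 in WT and at least 2.41-fold higher between the *Dyrk2*-/--labelled arrays, the pattern of most other macrophage genes. A second RefSeq probe was above background on the E8.5 array labelled *Dyrk2*-/- alone, and no other *Ptprc* probe was above background on more than 1 array.

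*Spi1* had a single probe that stayed not well above background, with −5.88 and −6.76 at E8.5, then −6.93 and −6.12 at E10.5. No fold was taken from it.

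*Aif1*, which encodes the actin-bundling protein Iba1 and is a common macrophage and microglia marker, measured −6.82 and −5.23 at E8.5, below background, and −2.45 and −2.52 at E10.5. It was at least 5.16-fold higher at E10.5 in WT and at least 4.03-fold higher between the *Dyrk2*-/--labelled arrays. Between the E10.5 arrays its log2 ratio was −0.06.

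*Lyz2*, the lysozyme of myeloid cells, measured −5.22 and −6.69 at E8.5, below background, and −0.29 and −0.63 at E10.5. It was at least 23.2-fold higher at E10.5 in WT and at least 14.9-fold higher between the *Dyrk2*-/--labelled arrays. A second *Lyz2* probe was below background on all 4 arrays.

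*Cd68*, a glycoprotein of the lysosome membrane, measured −0.74 and −0.61 at E8.5, then −0.09 and −0.32 at E10.5. The 4 values lay close together, and E10.5 was 1.57-fold higher in WT and 1.22-fold higher between the *Dyrk2*-/--labelled arrays. A second probe measured −3.36 and −2.78 at E8.5, then −1.98 and −2.67 at E10.5, and at E10.5 it was 1.61-fold lower on the *Dyrk2*-/--labelled array, where the brightest probe was 1.17-fold lower.

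*Fcer1g* and *Tyrobp* (DAP12) encode ITAM adaptors, the first for Fc receptors and the second for Trem2 and related receptors. *Fcer1g* measured −3.08 and −3.55 at E8.5, then −0.46 and −0.83 at E10.5, which is 6.16-fold higher at E10.5 in WT and 6.58-fold higher between the *Dyrk2*-/--labelled arrays. *Tyrobp* measured −6.27 and −6.56 at E8.5, below background, and −1.24 and −1.96 at E10.5, at least 11.9-fold and at least 5.92-fold higher. Both adaptors were low on both E8.5 arrays and high on both E10.5 arrays. At E10.5 the *Dyrk2*-/--labelled array had 1.64-fold less *Tyrobp* signal (log2 ratio −0.72), and the spread of such a difference between repeated spots of the 10 repeated probes nearest in signal was 0.22 (log2, SD), which covers printing and reading of spots but not embryos.

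**Figure D1:**
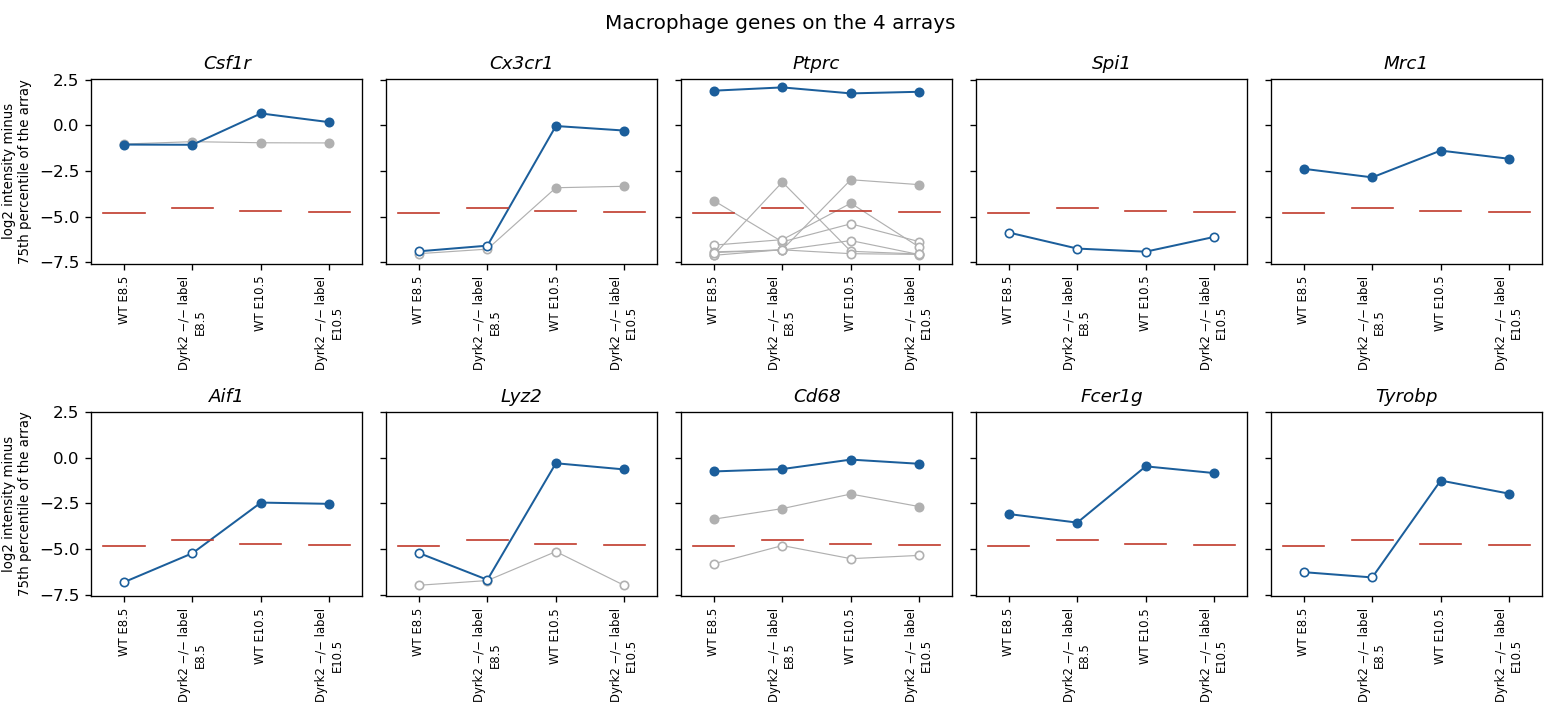
Level of each macrophage gene on the 4 arrays, as log2 intensity minus the 75th percentile of the array on the y axis. Blue marks the brightest probe and grey the other probes, filled points are well above background and open points are not, and red bars give the lowest value well above background on each array. *Cx3cr1*, *Aif1*, *Lyz2* and *Tyrobp* are open at E8.5 and filled at E10.5, and *Spi1* is open on all 4 arrays.

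Between E8.5 and E10.5 the macrophage genes were higher at the later stage in most cases. In WT, 8 of the 9 genes that could be compared were 1.5-fold or more higher at E10.5 and 0 were 1.5-fold or more lower, where 17.3% of all genes compared were higher by that much and 15.9% lower. On the arrays labelled *Dyrk2*-/-, 7 of 9 were higher, *Cd68* falling short, and 0 lower, beside 14.9% and 13.3% of all genes. With spike-in scaling or none, *Ptprc* turned to higher at E10.5 on the arrays labelled *Dyrk2*-/-, and with no scaling in WT too. The median log2 ratio of the macrophage genes, with 4 genes at their bound, was 2.37 in WT and 2.01 on the arrays labelled *Dyrk2*-/-, and the medians for all genes were −0.08 and −0.05. Over the 5 genes present on all 4 arrays it was 0.99 and 1.01, against −0.09 and −0.08 for all genes present on both arrays of a pair. Of the 9 genes, 4 passed the filter through their E10.5 arrays alone and so had to be higher there, while among the 5 genes present on all 4 arrays, 4 were past 1.5-fold in WT and 3 on the arrays labelled *Dyrk2*-/-.

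limma was fitted over all 4 arrays with terms for stage and genotype, which leaves 1 degree of freedom for the residual. At an adjusted p under 0.05 limma called 8 of the 9 tested macrophage genes for stage, all 8 higher at E10.5, beside 35.3% of all probes tested, 15.7% called higher and 19.6% lower. Of the 8, *Cx3cr1*, *Lyz2*, *Tyrobp* and *Aif1* entered the fit through their E10.5 arrays alone, so that the filter fixed their direction, and no p is given for them. Among the 5 genes present on all 4 arrays limma called 4, and each of these was higher on both E10.5 arrays than on both E8.5 arrays. The adjusted p from limma was 1.01e-05 for *Fcer1g* (log2 difference 2.67, SE 0.18), 0.000161 for *Csf1r* (1.48, SE 0.16), 0.00303 for *Mrc1* and 0.042 for *Cd68* (0.47, SE 0.15). With spike-in scaling the *Mrc1* call was lost at an adjusted p of 0.117 in limma, though the difference was larger (1.29) with a larger SE (0.51), and so was the *Cd68* call (adjusted p 0.721, difference 0.75, SE 0.55). limma also lost the *Cd68* call with normexp background correction (adjusted p 0.067, difference 0.36) and without the intensity trend (0.123, difference 0.47). The second *Csf1r* probe did not follow, with an adjusted p of 0.999 in limma, while the second *Cd68* probe had the same direction (log2 difference 0.74, SE 0.30) at an adjusted p of 0.0848 in limma. *Ptprc* had an adjusted p of 0.248 in limma by its level probe. In RNA of whole embryos, more macrophages and more RNA per macrophage cannot be told apart.

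Between genotypes at E8.5 the macrophage genes went either way, 2 higher and 3 lower on the *Dyrk2*-/--labelled array, while with spike-in scaling, which moved the median of all genes by −0.55, and with no scaling, which moved it by −0.26, all 5 were lower beside 94.0% and 82.6% of all genes. Of 5 genes compared, 0 were 1.5-fold or more higher on the array labelled *Dyrk2*-/- and 0 lower, where 4.72% of all genes were higher and 4.53% lower. With spike-in scaling or with none, 2 of the 5, *Mrc1* and *Fcer1g*, were lower by that much, where the median of all genes was −0.56 and −0.27. The share of all genes 1.5-fold or more lower under these scalings is not given here. The count of 2 is therefore not read as a result about the macrophage genes. *Mrc1* and *Fcer1g* had log2 ratios of −0.47 each, *Csf1r* of −0.01, *Cd68* of 0.13 and *Ptprc* of 0.18. The median was −0.01, against −0.02 for all genes.

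At E10.5, 8 of the 9 macrophage genes were lower on the array labelled *Dyrk2*-/- by any amount, beside 50.2% of all genes, *Ptprc* being the exception with a log2 ratio of 0.09. The tally depends on the probe, since the second *Cx3cr1* probe was higher (0.08), the second *Csf1r* probe was nearly level (−0.01) and the RefSeq probe of *Ptprc* was lower (−0.27), and with the mean over the probes of a gene all 9 were lower. 0 genes were 1.5-fold or more higher and 1, *Tyrobp*, was lower by that much, beside 2.40% and 3.09% of all genes. The median log2 ratio was −0.35, against 0.00 for all genes. After *Tyrobp*, the ratios were −0.48 for *Csf1r*, −0.45 for *Mrc1*, −0.37 for *Fcer1g*, −0.35 for *Lyz2*, −0.25 for *Cx3cr1*, −0.23 for *Cd68* and −0.06 for *Aif1*. The ratios of *Aif1* and *Ptprc* lay within the spot spread (0.22 and 0.12), so their signs carry little weight in the tally. Those of *Cx3cr1* and *Cd68* were 1.72 and 1.58 times their spot spread. With scaling by the spike-in controls the median of all genes moved by 0.16, 7 of the 9 were lower beside 21.5% of all genes, and *Tyrobp*, at −0.55, fell just short of 1.5-fold. With no scaling, which moved the median of all genes by −0.13, all 9 were lower beside 76.5% of all genes and 2 passed 1.5-fold, and with normexp 0 did. The share of all genes past 1.5-fold under these settings is not given here, so the change in this count is not read as a result about the macrophage genes.

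For genotype over both stages, limma called 0 of the 9 macrophage genes at an adjusted p under 0.05, while 0.0186% of all probes were called. At an unadjusted p under 0.05 there were 3 of 9 in the same limma fit, *Fcer1g*, *Lyz2* and *Mrc1*, beside 4.92% of all probes. Of these, *Lyz2* was below background at E8.5, and *Fcer1g* and *Mrc1* were lower on the *Dyrk2*-/--labelled array at both stages.

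**Figure D2:**
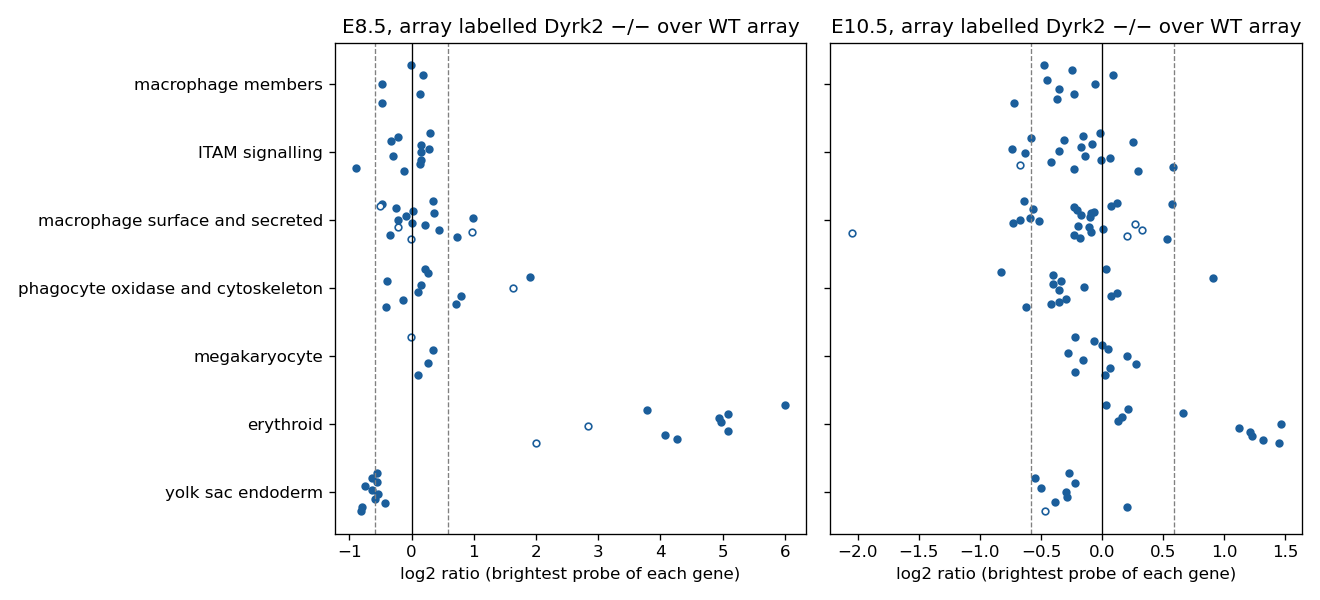
Log2 ratio of the array labelled *Dyrk2*-/- over the WT array at E8.5 (left) and E10.5 (right) for the macrophage genes and 6 other gene lists, with 1 point per gene by its brightest probe and different x scales in the panels. Open points are bounds from a gene well above background on 1 array, and dashed lines mark 1.5-fold. Erythroid genes lie far to the right at E8.5, and the macrophage genes lie on both sides of 0 at E8.5 (all 5 left of it with spike-in scaling or none) and mostly left of it at E10.5.

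The regulators and ligands of the lineage were read from a list of 20 genes, of which 18 were present on at least 1 array. Between E8.5 and E10.5 limma called 7 of 18 higher and 1 lower, and 5 of the 16 present on all 4 arrays higher and 1 lower, where 15.7% of all probes were called higher and 19.6% lower. The same shares stand beside the counts of the lists that follow. *Myb*, a regulator that definitive blood stem cells need and yolk sac macrophages do not, measured −1.43 and −1.60 at E8.5, then 0.18 and 0.08 at E10.5, and *Runx1*, needed for the emergence of blood cells, −3.38 and −3.33 and then −1.56 and −1.92. *Irf8*, a partner of PU.1, measured −2.44 and −2.10 at E8.5, then −0.67 and −1.24 at E10.5. The ligand *Csf1* stayed between −0.50 and −0.42 over all 4 arrays, and the ligand *Il34* was below background on all of them. *Csf2rb*, the shared receptor chain for several cytokines, stood apart with −4.98 (below background) and −0.27 at E8.5, then 0.33 and 1.60 at E10.5, higher on the *Dyrk2*-/--labelled array at both stages. The 3 genes of highest mean signal, *Csf3r*, *Csf2ra* and *Id2*, had log2 ratios between genotypes of −0.15, 0.01 and −0.44 at E8.5, then 0.23, −0.13 and −0.19 at E10.5.

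Of 24 genes of ITAM signalling, 18 were present on at least 1 array, and limma called 10 of 17 higher at E10.5 and 4 lower, with 5 tested through their E10.5 arrays alone. Of the 11 present on all 4 arrays it called 5 higher and 4 lower. The kinase *Syk*, which binds phosphorylated ITAMs, measured −2.14 and −1.85 at E8.5, then −0.37 and −0.39 at E10.5, and the receptor *Trem2*, a partner of Tyrobp, −6.28 and −6.73, below background, and then −2.85 and −2.79. The genes of highest mean signal were *Siglech*, *Plcg2* and *Lyn*, of which the log2 ratio between E10.5 and E8.5 in WT was −0.12, −0.92 and 0.61. Between genotypes at E10.5, 14 of 18 were lower on the *Dyrk2*-/--labelled array with a median of −0.16, beside 50.2% of all genes, and with spike-in scaling 9 of 18 beside 21.5%. At E8.5, 5 of 12 were lower with a median of 0.07, beside 52.5% of all genes, and with spike-in scaling all 12 beside 94.0%.

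The list of macrophage surface and secreted proteins had 44 genes, and 28 were present. limma called 12 of 23 higher at E10.5 and 3 lower, with 7 tested through their E10.5 arrays alone, and of the 13 present on all 4 arrays 4 higher and 3 lower. The complement gene *C1qc* measured −7.10 and −6.85 at E8.5, below background, and −1.52 and −2.25 at E10.5, and *Adgre1* −6.96 and −6.66 and then −2.97 and −3.60. *Apoe*, *Itgam* and *Axl* had the highest mean signal, and *Apoe*, also made by yolk sac endoderm, went the other way with 4.60 and 4.25 at E8.5, then 2.80 and 2.62 at E10.5. *Itgam* and *Axl* had log2 ratios between the stages of 0.41 and 1.40 in WT. At E10.5, 18 of 26 genes were lower on the *Dyrk2*-/--labelled array with a median of −0.14, beside 50.2% of all genes, and with spike-in scaling 13 of 26 beside 21.5%. At E8.5, 8 of 18 were lower with a median of 0.00, beside 52.5% of all genes, and with spike-in scaling 15 of 18 beside 94.0%. Of the 18, 3 were 1.5-fold or more higher at E8.5 and 0 lower, beside 4.72% and 4.53% of all genes. With spike-in scaling 0 were higher and 7 lower by that much, where the median of all genes was −0.56. At E10.5, 0 of 26 were 1.5-fold or more higher and 5 lower, beside 2.40% and 3.09% of all genes. With spike-in scaling these counts were 2 and 1. The shares of all genes past 1.5-fold with spike-in scaling are not given here, so the counts under it are not read as a result about this list. Of the markers of tissue-resident macrophages and microglia, *Timd4*, *Cd163*, *P2ry12* and *P2ry13* were below background on all 4 arrays and *Gpr34* was present on the E10.5 array labelled *Dyrk2*-/- alone. *Tmem119*, which other cells of the embryo also express, was present on all 4, with 0.14 and 0.58 at E8.5, then 1.92 and 1.83 at E10.5.

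Of 16 genes of the phagocyte oxidase and the leukocyte cytoskeleton, 14 were present, and limma called 10 of 14 higher at E10.5 and 1 lower. Of the 10 present on all 4 arrays it called 7 higher and 1 lower. *Coro1a*, an actin regulator of leukocytes, measured −0.95 and −1.34 at E8.5, then 1.63 and 1.23 at E10.5. The 3 genes of highest mean signal were *Cyba*, *Arhgdib* and *Lcp1*, with log2 ratios between the stages of −0.53, 0.08 and 0.74 in WT. *Ncf4*, a cytosolic subunit of the oxidase, was higher on the *Dyrk2*-/--labelled arrays, with log2 ratios of 1.90 at E8.5 and 0.91 at E10.5. Of the whole list, 3 of 12 genes were lower under that label at E8.5 with a median of 0.18, beside 52.5% of all genes, and 10 of 14 at E10.5 with a median of −0.34, beside 50.2%. With spike-in scaling they were 8 of 12 beside 94.0% and 9 of 14 beside 21.5%. *Cybb*, the catalytic subunit, was below background on all 4 arrays.

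Of 18 lysosomal genes, expressed in most cell types, 17 were present and limma called 3 higher and 4 lower at E10.5. Of the 16 present on all 4 arrays it called 2 higher and 4 lower, beside 15.7% and 19.6% of all probes. *Grn*, *Lamp1* and *Ctsl* had the highest mean signal, and their log2 ratios between the stages in WT were −0.13, −0.43 and −1.25. *Ctss*, the lysosomal protease of antigen-presenting cells, measured −5.66 and −6.55 at E8.5, below background, and −1.58 and −2.15 at E10.5. *Acp5*, the tartrate-resistant acid phosphatase of osteoclasts and macrophages, was the 1 gene of all these lists that limma called for genotype, at an adjusted p of 0.0434 and a log2 difference of 1.24, higher on the *Dyrk2*-/--labelled array of both stages with log2 ratios of 1.45 and 1.03. limma lost this call with spike-in scaling (adjusted p 1, difference 1.05) and without the intensity trend (0.933, difference 1.24), and under its other settings the adjusted p lay between 1.06e-06 and 0.0349.

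Markers of other cell types were read on the same arrays. A summed level is the sum over a list of the intensity of each gene's brightest probe relative to the 75th percentile of the array. Of 11 erythroid genes, 10 of 10 compared were 1.5-fold or more higher on the *Dyrk2*-/--labelled array at E8.5 and 7 of 11 at E10.5. The shares of all genes were 4.72% and 2.40%, and the erythroid medians were 4.60 and 1.12 (log2). At E10.5, 2 of 11 were lower with no scaling, and 1 of 11 with quantile normalization and with the deposited table. Under each of these settings 6 passed 1.5-fold, and the share of all genes that did is not given here. Their summed level was 16.9 and 382 at E8.5, then 1375 and 1599 at E10.5, with *Hbb-bh1* the brightest at E8.5 and *Hbb-y* at E10.5. *Hbb-y* measured 0.15 and 6.15 at E8.5, and the log2 ratio at E8.5 was 3.78 for *Hbb-bh1*, 4.94 for *Hba-a1*, 5.08 for *Hba-x*, 5.09 for *Slc4a1*, 4.07 for *Alas2* and 4.27 for *Gata1*. *Csf2rb*, *Ncf4* and *Acp5* shared the direction of the erythroid genes, and the part of the erythroid cells in their values was not tested.

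Yolk sac endoderm genes were lower on the *Dyrk2*-/--labelled array for 10 of 10 at E8.5, beside 52.5% of all genes. Of these, 6 were lower by 1.5-fold or more, beside 4.53% of all genes. With spike-in scaling or with none, all 10 were lower by 1.5-fold or more, where the median of all genes was −0.56 and −0.27. By any amount, 94.0% and 82.6% of all genes were lower. The share lower by 1.5-fold or more under these scalings is not given here, so the rise to 10 is not read as a result about these genes. Their summed level was 61.3 and 40.3 at E8.5, then 26.0 and 21.2 at E10.5, with *Rbp4* the brightest at E8.5 and *Afp* at E10.5. *Afp*, *Rbp4* and *Trf* had log2 ratios of −0.56, −0.59 and −0.43 at E8.5, then −0.27, −0.29 and −0.39 at E10.5. At E10.5, 8 of 9 were lower with a median of −0.30, beside 50.2% of all genes, and also 8 of 9 with spike-in scaling, beside 21.5%. This is the same direction as that of the macrophage genes between these arrays. Lower there as well were 13 of 18 lineage regulators and ligands (median −0.12), 7 of 10 blood progenitor genes (−0.07) and 8 of 12 endothelial genes (−0.10). With spike-in scaling these were 8 of 18, 3 of 10 and 3 of 12. Erythroid genes went the other way, and 2 of 6 granulocyte and mast cell genes were lower. Between the stages, 8 of the 10 yolk sac endoderm genes were 1.5-fold or more lower at E10.5 in WT, beside 15.9% of all genes. The yolk sac is a source of the first macrophages, and its part in the macrophage values was not tested.

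limma called all 11 megakaryocyte genes higher at E10.5, 7 of which entered through their E10.5 arrays alone, and all 3 of those present on all 4 arrays. Their summed level was 1.57 and 1.75 at E8.5 and 13.1 on the WT E10.5 array, 1.09-fold that on the E10.5 array labelled *Dyrk2*-/-. Gene by gene at E10.5, 6 of 11 were lower under that label with a median of 0.00, beside 50.2% of all genes. With spike-in scaling 4 of 11 were lower, beside 21.5%. *Pf4*, the brightest at E10.5, measured −6.45 and −5.18 at E8.5, below background, and 2.67 and 2.44 at E10.5, and *Itgb3* and *Clec1b* had log2 ratios between the stages of 1.85 and 1.17 in WT. The blood progenitor list of 12 genes summed to 16.7 and 19.4 at E8.5 and 27.9 on each E10.5 array, with *Cd34* the brightest at 2.41 and 2.40 and then 3.92 and 3.86. Its other genes of high signal, *Cd93* and *Lmo2*, had log2 ratios between the stages of 1.43 and −0.44 in WT. The 12 endothelial genes summed to 57.8 and 63.8 at E8.5, then 51.6 and 51.4 at E10.5, with *Egfl7* the brightest. The genes of highest signal, *Egfl7*, *Kdr* and *Flt1*, had log2 ratios of −0.59, −0.24 and −0.58 between the stages in WT. Of all 12, 6 were 1.5-fold or more higher at E10.5 in WT and 3 lower, beside 17.3% and 15.9% of all genes, with a median of 0.54. On the arrays labelled *Dyrk2*-/-, 2 were higher and 3 lower by that much, beside 14.9% and 13.3%, with a median of 0.14. Between genotypes at E8.5, 11 of the 12 were higher and 1 lower under that label, beside 52.5% of all genes lower. The median was 0.24. With spike-in scaling 8 of 12 were lower, beside 94.0%.

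Few genes of other white blood cells were present. Of 16 granulocyte and mast cell genes, 6 were present, and the list summed to 0.595 and 0.574 at E8.5, then 1.39 and 1.25 at E10.5. *Elane* was its brightest gene at E8.5 and *Mpo* at E10.5. *Mpo*, which early myeloid progenitors express too, measured −4.30 and −4.59 (below background) at E8.5, then −0.37 and −0.64 at E10.5, while *Elane* and *Hdc* had log2 ratios of −0.04 and −1.43 between the stages in WT. Of the markers of mature neutrophils, *S100a8*, *S100a9*, *Ltf*, *Ngp* and *Ly6g* were below background on all 4 arrays, and *Camp* was present on 3, at −4.33 on the *Dyrk2*-/--labelled array at E8.5, then −4.48 and −4.33 at E10.5. Of 16 lymphocyte genes, 6 were present, and the list summed to 4.27 and 5.01 at E8.5, then 3.45 and 3.48 at E10.5. *Lck*, *Cd4* and *Cd3e* were its genes of highest mean signal, with log2 ratios between the stages of −0.49, 0.25 and 0.13 in WT, and *Cd3d*, *Cd3g*, *Rag1* and *Rag2* were below background throughout.

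Of the 9 decidua and trophoblast genes on the arrays, 4 were present, and the list summed to 1.31 and 1.42 at E8.5, then 2.79 and 4.03 at E10.5, with *Dcn* the brightest. *Prl8a2* and *Prl3d1*, hormones of the decidua and of trophoblast giant cells, measured −3.05 and −1.61, and −5.40 (below background) and −2.09, at E8.5, higher on the array labelled *Dyrk2*-/-, where *Dcn* was 1.57-fold lower. Both hormone genes were below background at E10.5. The part of maternal or placental tissue in the macrophage values was not tested.

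The genes whose pattern over the 4 arrays was nearest to that of *Csf1r*, among 18685 genes present on all 4 arrays and by the Euclidean distance of 4 centred log2 values, were *Itgb8* at 0.04, *2610100L16Rik* at 0.06, *Phf21b* at 0.07, *Mturn* at 0.07 and *Gpm6a* at 0.08. *Csf1r* itself lay at −0.73, −0.74, 0.98 and 0.50 around its mean, and *Itgb8* at −0.72, −0.75, 0.95 and 0.51. Nearest to the median profile of the 5 macrophage genes present on all 4 arrays were *Syn1* at 0.02, *Mrc1*, itself 1 of the 5, at 0.03, *Gdpd1* at 0.08, *Med9os* at 0.08 and *4931428F04Rik* at 0.09.

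Promoter sequence was read for the macrophage genes because most of them were higher together at E10.5 and because PU.1 binds purine-rich DNA with the core GAGGAA. RefSeq promoters (GRCm38.p6) were at hand for 7 of the 10 genes, and *Csf1r*, *Spi1* and *Tyrobp* had none in the table. In the 250 bases before the start, GAGGAA on either strand stood in 4 of the 8 promoters of these genes, 1 promoter each of *Mrc1*, *Aif1*, *Cd68* and *Ptprc*, and in 23.3% of all 32851 promoters of the table. *Mrc1* held 3 matches, and *Fcer1g*, *Cx3cr1* and *Lyz2* held 0 in this window. The matching promoters of 3 genes, *Mrc1*, *Aif1* and *Cd68*, are shown to let the matches be read in place, 5′ to 3′ on the strand of the gene, in lower case with each match of GAGGAA or of its reverse complement TTCCTC in capitals. They lie at chr2:14229164-14229413 on the plus strand (*Mrc1*), chr17:35176053-35176302 on the minus strand (*Aif1*) and chr11:69666171-69666420 on the minus strand (*Cd68*). A match is a description of the letters and not a binding site.
*Mrc1*: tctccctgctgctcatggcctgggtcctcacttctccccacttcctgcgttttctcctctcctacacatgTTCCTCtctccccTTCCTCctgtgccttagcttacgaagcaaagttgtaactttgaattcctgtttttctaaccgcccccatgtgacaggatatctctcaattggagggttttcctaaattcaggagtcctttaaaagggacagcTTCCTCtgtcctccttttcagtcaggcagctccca
*Aif1*: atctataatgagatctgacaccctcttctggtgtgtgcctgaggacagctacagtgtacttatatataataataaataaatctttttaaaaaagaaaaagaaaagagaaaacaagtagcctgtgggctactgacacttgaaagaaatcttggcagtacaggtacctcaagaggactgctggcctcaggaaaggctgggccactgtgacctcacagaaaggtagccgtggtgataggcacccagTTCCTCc
*Cd68*: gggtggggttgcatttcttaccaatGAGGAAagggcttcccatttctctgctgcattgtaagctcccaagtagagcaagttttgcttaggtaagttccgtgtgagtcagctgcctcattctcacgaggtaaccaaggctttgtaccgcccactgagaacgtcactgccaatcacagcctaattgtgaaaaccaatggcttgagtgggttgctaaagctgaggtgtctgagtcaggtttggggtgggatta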

How the data were processed

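For every array the authors deposited what Agilent Feature Extraction wrote (10.7.1.1 in the header, 9.5.1.1 in the processing notes): a linear processed intensity of 62976 spots, less background and unscaled across arrays. A deposited value table of intensity, linear too, served as an alternative, and its log2 values lay a median of 0.006 from quantile-normalized ones. Probe positions follow the annotation of the array (mm9).

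Outlier spots were dropped, log2 intensity was averaged per probe, and each array's 75th percentile was taken off. The brightest probe stood for a gene, which entered a comparison if either array of the pair had it well above background, and the threshold was 1.5-fold. A gene present on 1 array of a pair entered counts and medians with its bound, and a bound under 1 counted as no difference. The design written for the analysis did not state this use of bounds: it was chosen after intensities of these genes had been seen, and values without the bound were computed as an alternative. So was the alternative of the brightest probe with a RefSeq accession, chosen after the level *Ptprc* probe had been seen.

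The spot spread came from the 10 probes nearest in signal among those printed 3 or more times. It was first taken from 50, and the number was lowered after the results had been seen, because nearly all repeated probes are far brighter than these genes. Even so, few repeated probes have signals like theirs. This spread also set when a median or ratio was read as moved in the alternatives.

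Genotype and stage were tested over all 4 arrays with limma 3.58.1 (additive in both factors, eBayes trend on) for 32289 probes that 2 or more arrays had well above background, p-values being adjusted by Benjamini-Hochberg. Its residual comes from how far genotype ratios at E8.5 and E10.5 differ, and limma used the dim values as measured. The fit was tested on simulated data. The software was Python 3.11.15 (pandas 2.3.3, matplotlib 3.10.9, numpy 2.4.6) and R 4.3.3. The number of arrays limits the precision.

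From each other list, the 3 genes of highest mean signal and genes 1.5-fold or more different in the same direction at both stages were named, at most 8 a list, and the other genes named from the lists were chosen after their values were seen. A gene that this rule names is not reported here. The 10 genes and the lists were chosen with earlier results of these data known. Alternatives were quantile normalization, spike-in scaling, no scaling, normexp with an offset of 50, the deposited table, stricter filters, a gene's mean over its probes, a 2-fold threshold and limma without the trend. The direction of the other lists under each scaling, and the limma counts of genes present on all 4 arrays, were computed after their values had been seen.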

Additional observations from a re-analysis of the deposited data

Results flagged for a closer look

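*Cd68* had opposite signs between genotypes at the 2 stages, with a log2 ratio of 0.13 at E8.5 and −0.23 at E10.5 (array labelled *Dyrk2*-/- over WT, 1 array each). The spot spread of these ratios was 0.20 and 0.14 (log2, SD), so the E8.5 ratio lay within it. The difference between the stages was not tested. A second *Cd68* probe had 0.58 and −0.69, and the mean over the probes 0.36 and −0.46. With scaling by the spike-in controls the ratios were −0.41 and −0.07, and with no scaling −0.12 and −0.36. Less the median of all genes, the brightest probe stood at 0.15 (E8.5) and −0.23 (E10.5). These scalings move all genes of an array alike and so could not change those 2 values.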

How the results depend on the processing

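The count of macrophage genes 1.5-fold or more higher was 0 between genotypes at both stages under every alternative run. The count lower by that much went from 0 to 2 at E8.5 with spike-in or no scaling, and at E10.5 from 1 to 2 with no scaling and to 0 with spike-in scaling and normexp. Spike-in and no scaling also moved the median of all genes. The shares of all genes past 1.5-fold under the alternatives are not given here, so these moves are not read as a result about the macrophage genes. Between the stages, a filter on both arrays left 5 genes to compare and lowered the count to 4 in WT and 3 on the arrays labelled *Dyrk2*-/-, and limma's stage calls to 4 of 5, since fewer genes were tested. With normexp the counts were 6 and 5, with spike-in scaling 7 and 8, and with a 2-fold threshold 6 and 7. The shares of all genes that passed under these alternatives are not given here, so the changes in these counts are not read as a result. With spike-in scaling the median of all genes was itself 0.58 between the stages on the arrays labelled *Dyrk2*-/-. Without scaling, limma called 1 gene for genotype, *Lyz2*, at an adjusted p of 0.00915, while all probes called for genotype rose from 6 to 729. Under the other alternatives limma called 0 of the tested macrophage genes for genotype. Apart from the filter, with its 4 of 5, limma called from 6 to 9 for stage. *Mrc1* and *Cd68* lost their stage calls with spike-in scaling, where their log2 differences rose to 1.29 and 0.75. *Cd68* also lost its call with normexp (0.36) and without the trend (0.47). Probes called for genotype numbered 29 with quantile normalization, 37 with spike-in scaling, 25 with normexp, 40 in the deposited table, 10 with the stricter filter, 16 with the mean over probes and 0 without the trend.

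Median log2 ratios moved as follows. Between genotypes at E8.5 the median was −0.55 with spike-in scaling, −0.26 with no scaling and −0.24 with RefSeq probes, and at E10.5 −0.19 with spike-in scaling. In WT the stage median was 1.38 with normexp, 0.99 with the filter on both arrays, 2.10 with RefSeq probes and 2.62 without the bound. On the arrays labelled *Dyrk2*-/- it was 2.65 with spike-in scaling, 2.32 with no scaling, 0.85 with normexp, 1.01 with the filter, 1.64 with RefSeq probes and 2.71 without the bound. The values without the bound and with RefSeq probes were chosen after seeing the data. Spike-in scaling moved the median of all genes too, by −0.55 between genotypes at E8.5 and 0.63 between the stages on the arrays labelled *Dyrk2*-/-, and no scaling by −0.26 and 0.30. Both scalings move all genes of an array alike, so the macrophage median at E8.5 relative to all genes, 0.01, could not change under them. limma's stage calls split into 5062 probes higher and 6335 lower, 2094 and 538 with spike-in scaling, and 8758 and 3010 with no scaling. The cause of these shifts was not tested. Ratios of single genes under the alternatives moved beyond the spot spread in 75 cases and stayed within it in 201, and no ratio past 1.5-fold changed sign.

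No array was left out, since limma then keeps no residual degree of freedom. Dim signal limits *Spi1* and the E8.5 levels of *Cx3cr1*, *Aif1*, *Lyz2* and *Tyrobp*.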
